A study of Homo sapiens with 2 samples.

Results

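FOXO1, FOXO3 and FOXO4, and 6 genes linked to FOXO activity or to a resting state, TXNIP, ARRDC3, ARRDC4, PIK3IP1, KLHL24 and CCNG2, were followed on 2 Affymetrix arrays of PLC/PRF/5, an established human hepatocellular carcinoma line. They were taken as the 26 probe sets whose single annotated gene symbol is one of these 9, out of 54675 probe sets and 19775 named genes. One array held chemoresistant hepatospheres, which are PLC/PRF/5 spheroids treated with cisplatin, a DNA crosslinker, together with doxorubicin, a topoisomerase II poison. The other held differentiated cells, made by adding fetal bovine serum to spheroids and letting them attach. The labels give no dose or time and no drug history for the source spheroids of the differentiated cells, so growth form, serum, attachment and possibly drug exposure cannot be told apart. Each group was 1 array with no replicate, so differences carry no error and no test, and precision is limited by having 1 array a side.

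FOXO proteins are forkhead transcription factors at the end of the insulin and growth factor pathway. When PI3K and AKT are active, AKT phosphorylates FOXO proteins, 14-3-3 proteins bind them and they are held in the cytoplasm. When the pathway is quiet they enter the nucleus and switch on genes of cell cycle arrest, stress defence and, in liver, glucose production. Their activity is set largely by phosphorylation, so an mRNA level does not measure it. TXNIP, ARRDC3 and ARRDC4 are alpha-arrestins, adaptors that bring membrane proteins to NEDD4 family ubiquitin ligases. TXNIP also binds thioredoxin, and TXNIP and ARRDC4 are classic targets of the glucose sensor MondoA. PIK3IP1 is a membrane protein that restrains PI3K, KLHL24 is a substrate adaptor of cullin 3 ubiquitin ligase, and CCNG2 is the unconventional cyclin G2, known to accumulate in arrested cells and as a FOXO target.

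The sequences before the starts of the 4 genes that stood at least 2-fold higher in hepatospheres are shown because they carry letters that FOXO or Mondo family factors are known to bind. They are RefSeq promoter windows of build GRCh38.p14, read 5′ to 3′ on the strand of the gene, and each is the 250 bases before an annotated start. All 9 genes matched the promoter table, with 15 windows in all. Capitals mark a forkhead motif (GTAAACA, or TGTTTAC on the other strand), an E-box (CACGTG, the same on both strands) or a spaced pair (2 copies of CACGNG with 5 bases between them, searched on both strands) written from the known carbohydrate response element of TXNIP, so that its match in TXNIP follows from how it was written. An E-box can form one end of a spaced pair, and no such overlap occurred in these windows.
TXNIP, chr1:145996580-145996829, minus strand: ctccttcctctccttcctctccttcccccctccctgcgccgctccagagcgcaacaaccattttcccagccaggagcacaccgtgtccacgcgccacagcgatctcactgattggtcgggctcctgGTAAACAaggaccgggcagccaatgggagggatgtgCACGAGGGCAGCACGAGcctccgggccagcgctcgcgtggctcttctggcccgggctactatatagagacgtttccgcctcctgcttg
ARRDC3, second start, chr5:91380098-91380347, minus strand: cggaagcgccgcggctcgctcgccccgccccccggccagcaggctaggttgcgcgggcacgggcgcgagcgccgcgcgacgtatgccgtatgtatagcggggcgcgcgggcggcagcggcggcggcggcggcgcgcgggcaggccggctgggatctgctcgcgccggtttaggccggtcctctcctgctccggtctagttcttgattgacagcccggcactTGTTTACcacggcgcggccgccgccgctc
ARRDC4, chr15:97960453-97960702, plus strand: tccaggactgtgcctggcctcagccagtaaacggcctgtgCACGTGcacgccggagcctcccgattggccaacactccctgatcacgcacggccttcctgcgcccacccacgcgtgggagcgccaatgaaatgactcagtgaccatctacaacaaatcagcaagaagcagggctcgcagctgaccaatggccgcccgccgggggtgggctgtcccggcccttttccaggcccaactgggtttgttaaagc
CCNG2, chr4:77156957-77157206, plus strand: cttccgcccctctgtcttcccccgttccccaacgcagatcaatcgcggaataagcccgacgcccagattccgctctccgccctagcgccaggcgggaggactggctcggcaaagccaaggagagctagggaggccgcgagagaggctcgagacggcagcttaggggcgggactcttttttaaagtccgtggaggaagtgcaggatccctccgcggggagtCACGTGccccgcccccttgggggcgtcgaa

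In TXNIP the forkhead motif began 124 bases and the spaced pair 88 bases before the start. In ARRDC3 a forkhead motif began 29 bases before the second annotated start, and no searched motif lay in the window of the first. ARRDC4 and CCNG2 had an E-box that began 210 and 30 bases before the start. Including the 50 bases after each start, 4 of the 9 genes had a forkhead motif in a window, the other two being FOXO4 and PIK3IP1 (its second start), where the motif lay just after the start. Of all 27305 genes with a window of this length, 4.19% had this motif in at least 1 window, 8.77% an E-box and 0.0732% (20 genes) the spaced pair. Per window the shares were 3.42%, 7.26% and 0.057% of 35116. Of the 15 windows of the 9 genes, 4 had the forkhead motif, 2 an E-box and 1 the spaced pair. The list was picked to hold FOXO-linked genes, so its forkhead count is a description and not a test. FOXO1, FOXO3 and KLHL24 had none of the 3 motifs. A match describes letters in the window and is not evidence of binding.

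**Figure D1:**
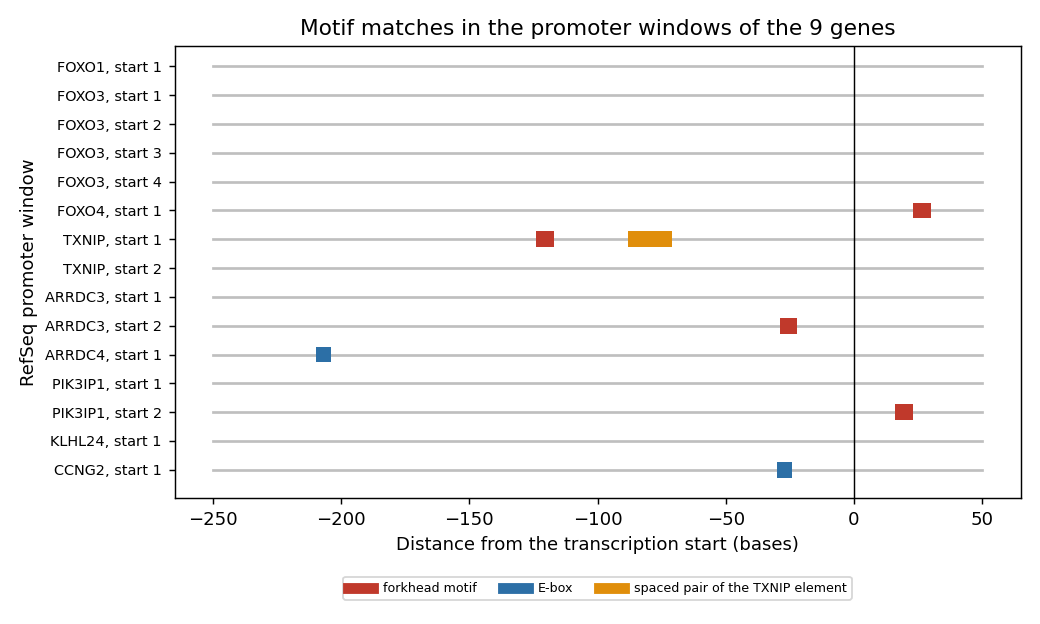
Motif matches in the 15 RefSeq promoter windows of the 9 genes, by distance in bases from the annotated transcription start (vertical line). Grey lines are windows from 250 bases before to 50 after a start, and coloured blocks are forkhead motifs (4 genes), E-boxes (2 genes) and the spaced pair (TXNIP).

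The measured values are MAS5 signals, a background-corrected brightness on a linear scale with arbitrary units. A floor of 84.1, the median signal of the hepatosphere array and the higher of the 2 array medians, was used as the lowest signal read as a level. A signal below it was set to the floor before log2 was taken, so the difference is then a lower bound, written "at least". A gene above the floor on a single array could only read higher there. A difference is the log2 signal of hepatospheres less that of differentiated cells, on the brightest probe set of each gene by mean log2 signal. All 9 genes passed the floor on an array, and 8 of them on both.

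TXNIP, ARRDC3, CCNG2 and ARRDC4 stood at least 2-fold higher in hepatospheres, 3 of these more than 4-fold. ARRDC4 passed the floor on the hepatosphere array alone and so could only read higher. PIK3IP1, KLHL24 and the 3 FOXO genes lay within 2-fold, and 0 of the 9 genes was 2-fold lower. Among all 12766 genes measured, 12.5% were at least 2-fold higher, 2.99% at least 4-fold higher and 8.83% at least 2-fold lower. The median difference was 0.96 over the 9 genes and 0.05 over all genes. The 9 genes were chosen with results of these arrays known, so these counts describe them and are not a test.

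These values depend on how the 2 arrays are scaled. Poly(A) control RNAs, which are usually added in fixed amounts before labelling, read 2.04-fold higher on the hepatosphere array (median of 12 probe sets). Setting them equal shifts each difference between signals above the floor by -1.03 and gives an all-gene median of -0.92, so the directions here are relative to the bulk of genes. On that scale, where 3.24% of genes were 2-fold higher and 46.3% 2-fold lower, TXNIP, ARRDC3 and CCNG2 stayed more than 2-fold higher, at 2.70, 1.44 and 1.03. FOXO1 then stood more than 2-fold lower at -1.66, FOXO3, FOXO4, PIK3IP1 and KLHL24 lay below 0, and ARRDC4 lay at least at 0.45, a lower bound because its differentiated signal was still below the floor. The 3′ to 5′ signal ratio of ACTB was 2.64 in hepatospheres and 1.48 in differentiated cells, and that of GAPDH was 1.04 in hepatospheres and 0.99 in differentiated cells. The part of these array differences in the results was not tested.

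**Figure D2:**
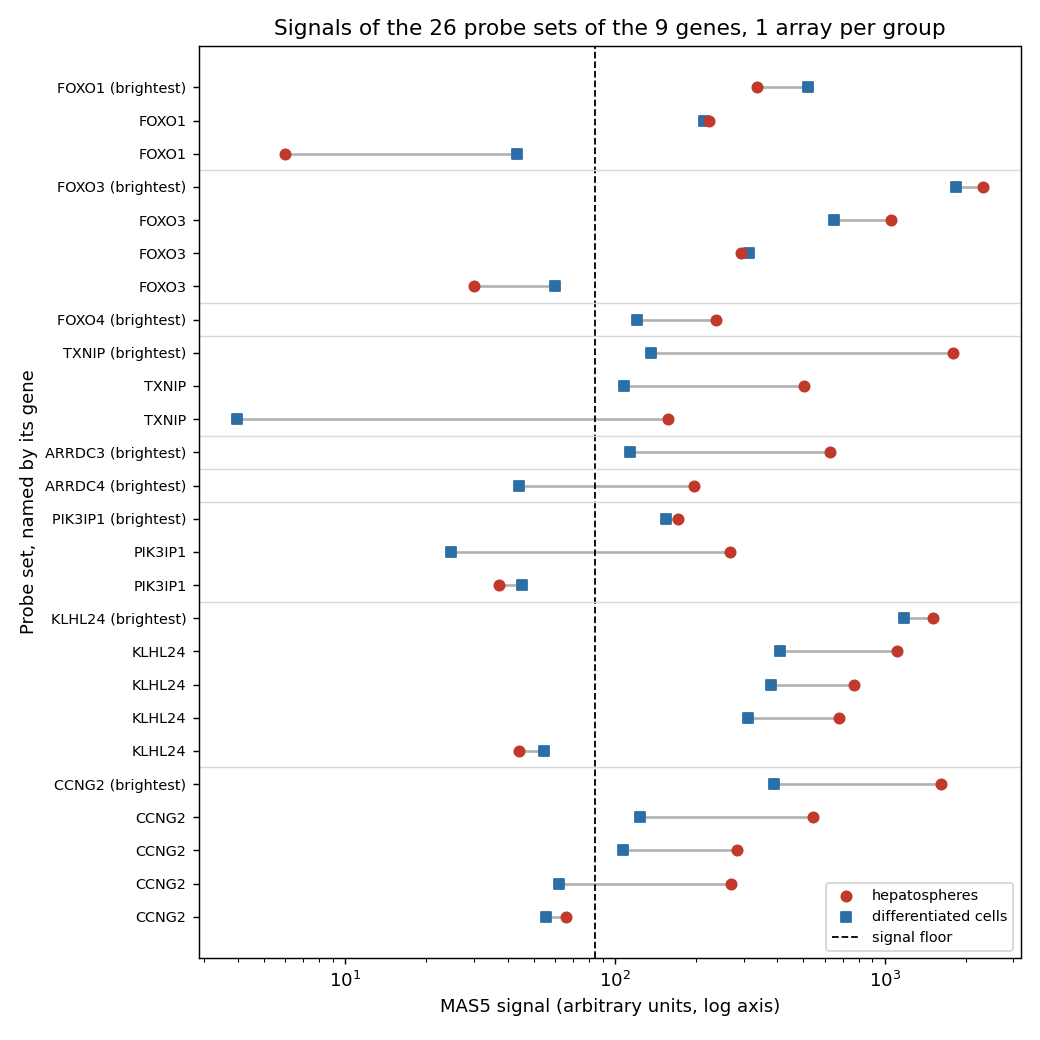
MAS5 signal (log axis, arbitrary units) of each of the 26 probe sets of the 9 genes in hepatospheres (red circles) and differentiated cells (blue squares), 1 array each, with the floor of 84.1 dashed. The 2 TXNIP and 3 CCNG2 probe sets above the floor on both arrays read higher in hepatospheres. The FOXO1 and FOXO3 probe sets above the floor go both ways.

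FOXO3, a broadly expressed FOXO factor, read 2318 in hepatospheres and 1833 in differentiated cells on its brightest probe set, a difference of 0.34. A second probe set read 1058 in hepatospheres and 649 in differentiated cells (0.71), and another 293 in hepatospheres and 313 in differentiated cells (-0.09). The measured FOXO3 probe sets therefore disagreed in direction, and the mean of these 3 differences was 0.32. The last one stayed under the floor, at 30.0 in hepatospheres and 59.9 in differentiated cells, and with it the mean over all 4 was -0.01. Of 3 further probe sets annotated to both FOXO3 and its near-identical relative FOXO3B, left unnamed by the rule, the brightest read 336 in hepatospheres and 291 in differentiated cells.

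FOXO1, the factor best known for driving gluconeogenic genes in liver, read 335 in hepatospheres and 521 in differentiated cells, 1.55-fold lower. Its other measured probe set read 224 in hepatospheres and 215 in differentiated cells, so that the direction rested on the brighter one. The last one stayed under the floor, at 6.0 in hepatospheres and 43.5 in differentiated cells, and pulled the mean over probe sets to -1.01. That value is a bound, because the hepatosphere mean lay under the floor. All 3 carry names that mark probes shared between transcripts. FOXO4 had 1 probe set, which read 236 in hepatospheres and 121 in differentiated cells, 1.95-fold higher and just inside the 2-fold limit. FOXO6, the remaining family member and a gene known mainly from brain, read 164 in hepatospheres and 53.3, below the floor, in differentiated cells, at least 0.96 higher on the log2 scale. Its only measured probe set, whose name marks cross-matching probes, passed the floor in hepatospheres alone and so could only read higher. None of the 6 measured FOXO1, FOXO3 and FOXO4 probe sets was 2-fold apart in either direction.

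TXNIP, which binds and blocks thioredoxin and limits glucose uptake, read 1794 in hepatospheres and 136 in differentiated cells. This is 13.2-fold higher, rank 58 of 12766 genes counted from the highest difference. Its second probe set read 503 in hepatospheres and 108 in differentiated cells, 4.66-fold higher. Its dimmest one read 157 in hepatospheres and 3.96 in differentiated cells, at least 1.87-fold higher. This dimmest one passed the floor in hepatospheres alone and so could only read higher. The 2 probe sets above the floor on both arrays went one way and differed by 1.502 on the log2 scale. Among 5206 genes with several such probe sets the median of this range was 0.52. All 3 TXNIP probe sets have shared-sequence names, so without such probe sets TXNIP has no value.

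ARRDC3, an alpha-arrestin that takes part in sorting of adrenergic receptors and integrins, read 628 in hepatospheres and 114 in differentiated cells on its single probe set. It was 5.52-fold higher and held rank 212. ARRDC4, an alpha-arrestin induced by glucose as TXNIP is, read 197 in hepatospheres and 44.1 in differentiated cells. The second value lies below the floor, so ARRDC4 was at least 2.34-fold higher, a bound that came under 2-fold, at a log2 difference of 0.37, when the floor was raised to percentile 60. The differentiated signals of both genes, like that of TXNIP, lay near or below the floor, where MAS5 is noisy.

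CCNG2 read 1612 in hepatospheres and 389 in differentiated cells, 4.15-fold higher and rank 367. Its other measured probe sets read 540, 284 and 269 in hepatospheres, against 124, 107 and 62.2 in differentiated cells. These stood 4.36-fold, 2.65-fold and at least 3.20-fold higher. The last of these passed the floor in hepatospheres alone and so could only read higher. The CCNG2 probe sets above the floor on both arrays were all more than 2-fold higher. The fifth stayed under the floor, at 65.9 in hepatospheres and 55.5 in differentiated cells. The 3 CCNG2 probe sets above the floor on both arrays spanned 0.72 on the log2 scale.

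KLHL24 and PIK3IP1 depended on the probe set. The brightest KLHL24 probe set, whose name marks cross-matching probes, read 1516 in hepatospheres and 1182 in differentiated cells, 1.28-fold higher. The other measured ones read 1110, 771 and 680 in hepatospheres, against 410, 378 and 311 in differentiated cells, and stood 2.71-fold, 2.04-fold and 2.19-fold higher. Without shared-sequence names KLHL24 thus stood at 1.44 instead of 0.36. The brightest PIK3IP1 probe set read 171 in hepatospheres and 154 in differentiated cells, 1.11-fold higher. Another read 268 in hepatospheres and 24.8 in differentiated cells, at least 3.19-fold higher, and the third was below the floor on both arrays. The PIK3IP1 probe set that read 268 passed the floor in hepatospheres alone and so could only read higher. The median centred and quantile normalized values of the brightest were -0.10 and -0.01. Of the 11 probe sets of the 6 linked genes above the floor on both arrays, 9 were 2-fold higher and 0 lower, as a description. Among all 19841 named probe sets above the floor on both arrays, 10.4% were 2-fold higher and 10.1% lower. The 4 other measured ones passed the floor on the hepatosphere array alone and so could only read higher.

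**Figure D3:**
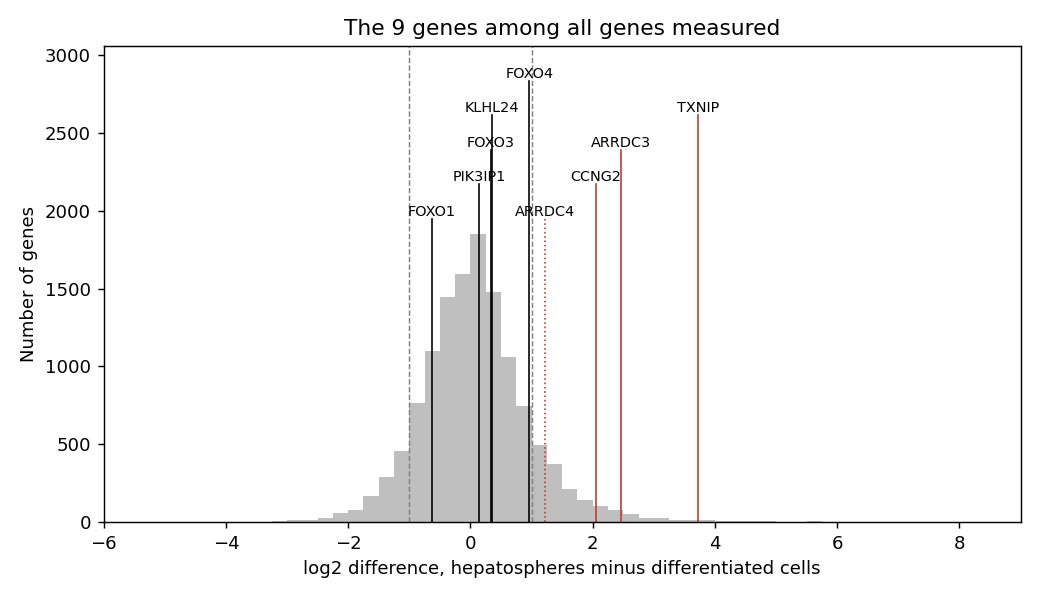
Histogram of log2 differences, hepatospheres minus differentiated cells, of 12766 genes on their brightest probe sets, with the 9 genes as vertical lines (red past 2-fold, dotted for a lower bound) and 2-fold limits dashed. TXNIP, ARRDC3 and CCNG2 lie in the upper tail, and FOXO1, PIK3IP1, FOXO3 and KLHL24 lie among the bulk of genes.

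Genes upstream of FOXO were mostly close on the 2 arrays, as most measured genes were. Beside the counts of this and the following lists, 12.5% of all genes were 2-fold higher and 8.83% lower. Of 15 measured genes from the insulin receptor to AKT, 1 was at least 2-fold higher and 1 at least 2-fold lower (median -0.17, and 0.30 over the 13 with a value without shared-sequence probe sets). IRS2, an insulin receptor adaptor that is itself a FOXO target, read 7026 in hepatospheres and 1641 in differentiated cells, 4.28-fold higher. IGF1R, the receptor of insulin-like growth factor 1, read 192 in hepatospheres and 448 in differentiated cells, 2.34-fold lower. IRS1 lay at -0.82, the PI3K catalytic gene PIK3CD at 0.94, and the kinases AKT1 and AKT2 at -0.21 and 0.15. The other measured AKT2 probe sets lay at 1.08, 0.78 and 0.68. With the mean over probe sets, 2 of these 15 genes were 2-fold higher and 0 lower (median 0.19). Of 10 measured phosphatases and other brakes on this pathway, 1 was 2-fold higher and 0 lower (median 0.09). This was DEPTOR, an inhibitor of the mTOR kinase, which read 619 in hepatospheres and 120 in differentiated cells. TRIB3, PPP2CB and PHLPP2 lay at 0.42, 0.37 and -0.59.

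Proteins that bind, export or turn over FOXO had 3 of 21 genes 2-fold lower and 0 higher (median -0.26). CREBBP, an acetyltransferase and coactivator, read 602 in hepatospheres and 1795 in differentiated cells, 2.98-fold lower. SKP2, a ubiquitin ligase subunit that targets FOXO1, was 2.46-fold lower on its brightest probe set and lay at -0.56 on the other. The cell cycle kinase CDK2 was 2.11-fold lower, and the nuclear exporter XPO1 lay at -0.75.

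Established FOXO targets were mixed. Among 20 measured targets of metabolism and oxidant defence, 5 were 2-fold higher and 1 lower (median 0.41). Without shared-sequence probe sets 14 of them had a value, with 2 higher, 1 lower and a median of -0.07, against 0.04 over all genes. PDK4, the kinase that restrains pyruvate oxidation, read 8343 in hepatospheres and 62.3, below the floor, in differentiated cells. PDK4 passed the floor in hepatospheres alone and so could only read higher. The gluconeogenic enzyme gene PCK1 read 2740 in hepatospheres and 138 in differentiated cells. SELENOP, which encodes a selenium carrier of plasma, was 5.26-fold higher on its brightest probe set. The liver targets G6PC1 and IGFBP1 lay the other way, at -0.95 and -0.66, the antioxidant enzymes SOD2 and CAT lay at 0.41 and 0.01, and the stress sensor SESN3 was 2.83-fold lower. Among 16 measured targets of arrest and death, 6 were 2-fold higher and 0 lower (median 0.42), and 3 of 14 were higher without shared-sequence probe sets. CDKN1A, the cyclin-dependent kinase inhibitor p21, read 1528 in hepatospheres and 159 in differentiated cells, KLF2 was 4.40-fold, KLF6 3.44-fold and GADD45B 3.22-fold higher. CDKN1B, the inhibitor p27 and a textbook FOXO target, lay at -0.35. Several of these genes respond to other regulators too, CDKN1A to p53 for example. On the poly(A) scale the medians of these target lists were -0.61 and -0.61, below 0 but above the all-gene median of -0.92.

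The partners of the alpha-arrestins were mixed in direction. MLXIP, which encodes MondoA, read 989 in hepatospheres and 1669 in differentiated cells (-0.76), its partner MLX lay at 0.15, and the related liver sensor MLXIPL (ChREBP) at 0.66. In the whole list of 16 measured Mondo and Max network genes and glucose-linked genes, 3 were 2-fold higher and 2 lower (median 0.27). PKLR, the liver pyruvate kinase and a ChREBP target, was at least 6.35-fold higher, MXD1, a Max-binding repressor, 6.12-fold higher and hexokinase 1 (HK1) 4.0-fold higher. PKLR passed the floor in hepatospheres alone and so could only read higher. The glucose transporter SLC2A2 was 7.24-fold lower. Of 9 measured NEDD4 family ligases, 1 was 2-fold higher and 0 lower (median -0.15). ITCH, a ligase that targets TXNIP, was 2.77-fold higher on its brightest probe set, but its 6 measured probe sets went both ways. NEDD4, HECW1 and WWP1 lay at -0.98, at least 0.95 and 0.68.

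Of 5 measured other arrestins, 0 were 2-fold higher and 1 was 2-fold lower (median -0.80). With the brightest probe set of the hepatosphere array their median was -0.07, with the mean over probe sets -0.11, and in both cases 0 were 2-fold lower. ARRDC1 and ARRDC2 lay at -0.07 and -0.02, the retromer genes VPS26A and VPS26B at -0.80 and -0.88, and ARRB1 at -1.09, where its probe sets went both ways. In the thioredoxin system 1 of 9 measured genes was 2-fold lower and 0 higher (median 0.01). TXNRD1, thioredoxin reductase, read 6863 in hepatospheres and 14840 in differentiated cells, and thioredoxin (TXN), the partner of TXNIP, lay at -0.51. TXNDC12 and GLRX lay at 0.89 and 0.47.

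Relatives of KLHL24 and CCNG2 were mostly within 2-fold, as were most genes, of which 12.5% were 2-fold higher and 8.83% lower. Among 21 measured cullin 3 genes and adaptors, 1 was 2-fold higher and 1 lower (median -0.27). KLHL28 read 1157 in hepatospheres and 232 in differentiated cells. KEAP1, the adaptor that holds NRF2 down, read 588 in hepatospheres and 2000 in differentiated cells. KLHL15, KLHL5 and CUL3 lay at -0.93, -0.82 and -0.36. Cyclin G1 (CCNG1), the closest relative of CCNG2 and a p53 target, lay at -0.29. Of 15 measured related cyclins and PP2A subunits 1 was 2-fold higher, PPP2R5B at 2.53-fold, and 0 were lower (median 0.07), with PPP2R1B, CCNO and CCNT1 at -0.94, at least 0.84 and 0.68.

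**Figure D4:**
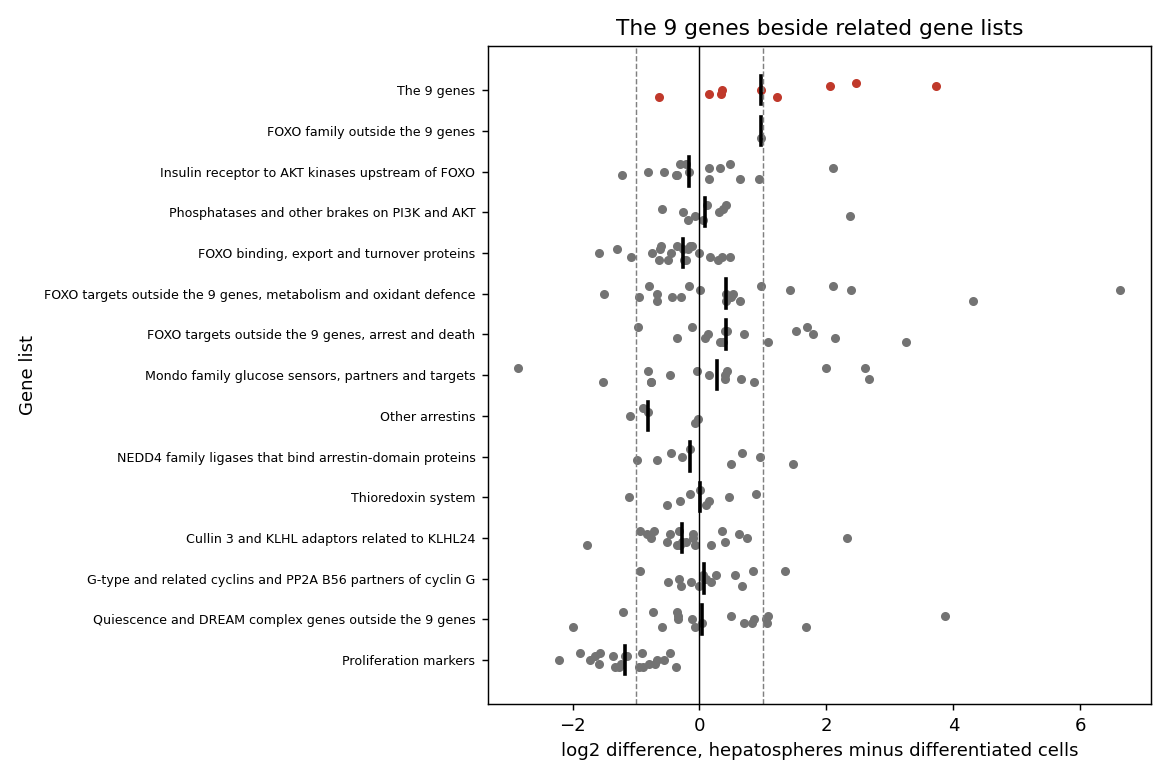
Log2 differences, hepatospheres minus differentiated cells, of the 9 genes (red) and of measured genes in related lists (grey), 1 point per gene, with list medians as black bars and 2-fold limits dashed. The proliferation markers lie below 0 without exception, and the quiescence list is spread on both sides of 0.

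Quiescence and DREAM complex genes had no common direction. Of 19 measured, 5 were 2-fold higher and 2 lower (median 0.04), and 2 were higher with median centring. NR2F1, an orphan nuclear receptor linked to tumour cell dormancy, read 1229 in hepatospheres and 1.20, far below the floor, in differentiated cells, at least 14.6-fold higher. The inhibitor gene CDKN1C (p57) was at least 3.19-fold higher, and RBL2, the pocket protein of resting cells, lay at 0.70. NR2F1 and CDKN1C passed the floor in hepatospheres alone and so could only read higher. RBL1, the pocket protein of cycling cells, was 3.96-fold lower on its brightest probe set (93.7 in hepatospheres and 371 in differentiated cells) and near 0 on a dimmer one. RBBP4 was 2.29-fold lower. Proliferation markers were 2-fold lower in 12 of 21 genes and higher in 0 (median -1.17), and all 21 lay below 0 under the 5 scalings run. FOXM1, the forkhead factor of dividing cells, was 4.62-fold lower, MCM4, MCM2 and MCM3 lay at -1.88, -1.72 and -1.65, and MKI67 was 2.41-fold lower, with its 4 measured probe sets all lower. With the mean over probe sets 1 of 20 proliferation markers lay above 0.

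The labelled cell type was checked on marker lists. All 13 hepatocyte markers present were above the floor on both arrays, 4 of them 2-fold higher and 2 of them 2-fold lower (median 0.69). Albumin read 27887 in hepatospheres and 10276 in differentiated cells. The fetal liver protein gene AFP went the other way, at 433 in hepatospheres and 2451 in differentiated cells, as did the keratin genes KRT8, 2.16-fold lower, and KRT18 at -0.76. Of 8 fibroblast markers, 5 reached the floor on an array and 2 were 2-fold higher in hepatospheres. All of the 5 except COL1A1 passed the floor in hepatospheres alone and so could only read higher. Summed signals of the 8 were 4205 in hepatospheres and 511 in differentiated cells. These sums include signals below the floor, where 7 of the 8 lay in differentiated cells. LUM read 2677 in hepatospheres and 1.14, below the floor, in differentiated cells, at least 31.8-fold higher. COL3A1 read 679 in hepatospheres and 42.6, below the floor, in differentiated cells, at least 8.07-fold higher. COL1A2, PDGFRA and PDGFRB were below the floor on both arrays. Without shared-sequence probe sets no fibroblast marker reached the floor, and the measured COL1A1 probe sets went both ways. The endothelial and leukocyte markers present on the arrays were below the floor on both arrays except PECAM1 and LYZ, which lay at 0.16 and 0.72. The other measured PECAM1 probe sets lay at 2.04, 0.07 and -0.04, and the other LYZ probe set at 2.83. The part of the fibroblast markers in the differences of the 9 genes was not tested.

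With 2 arrays a likeness of pattern is the distance between 2 pairs of signals. Among 11062 genes above the floor on both arrays, GSDMB (distance 0.07 on the log2 scale), IMMP2L (0.23) and GOLM1 (0.25) were nearest to TXNIP, the highest of the 9. PDE3B (0.02), TCTN1 (0.04) and ZNF428 (0.04) were nearest to FOXO1, the lowest.

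**Figure D5:**
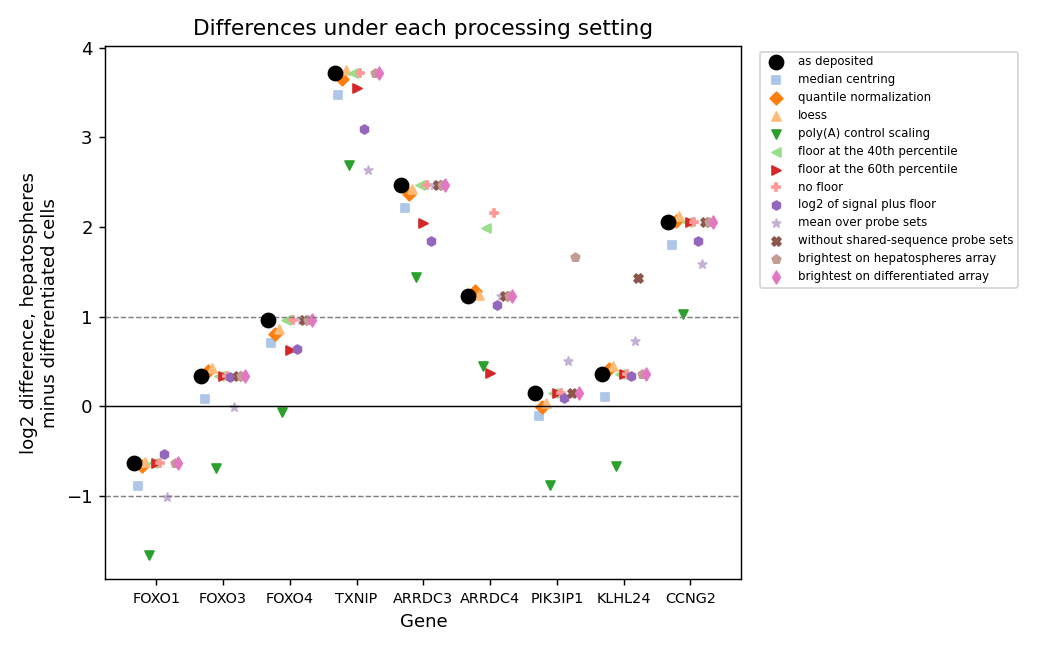
Log2 difference of each of the 9 genes, hepatospheres minus differentiated cells, as deposited (black) and under 12 other processing settings, with 2-fold limits dashed. TXNIP, ARRDC3 and CCNG2 stay above the upper limit wherever they have a value, and poly(A) control scaling (green) takes FOXO3, FOXO4, PIK3IP1 and KLHL24 below 0.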

How the data were processed

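Total RNA of 2 PLC/PRF/5 cultures was extracted in Trizol and biotin-labelled, per the labels' protocols, and grouped by source name. The deposited intensity values are linear MAS5 signals made by the authors per the submitters' processing notes. MAS5 subtracts background and mismatch brightness and scales each array globally, so weak signals are noisy. The version of MAS5 and its target value are not stated in any source at hand, and no detection calls were used.

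Naming used GEO's array annotation: 41091 had 1 gene symbol, 1801 several, 62 were controls and 11721 were unnamed here. Symbols were checked by gene identifier against RefSeq (GRCh38.p14), and 41037 matched. Each gene was read on its brightest probe set. The floor and the 2-fold rule are as stated with the results. Of the 12 alternatives, some changed scaling: median centring, quantile normalization, loess (smoothing by mean signal) and poly(A) controls. With the deposited values these are the 5 scalings run. Others set the floor at the 40th or 60th percentile, used no floor, or added the floor to each signal before log2. The rest took the mean over probe sets, dropped shared-sequence probe sets, or took the brightest on the hepatosphere or the differentiated array. A value was counted as moved when it changed by over 1.5-fold or crossed the 2-fold limit. The named genes are the 9, FOXO6, up to 4 genes with the largest difference from each list, and 15 direct partners, of which those without a value are not analysed here; other genes were named after their values were seen. The 9 genes and all lists were chosen with earlier results of these data known. The gene-level step was tested on simulated data. Python 3.11.15, numpy 2.4.6, pandas 2.3.3, statsmodels 0.14.6 and matplotlib 3.10.9 were used.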

Additional observations from a re-analysis of the deposited data

How the results depend on the processing

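With 1 array per group no sample could be left out. No paired analysis was possible because each group has 1 array. TXNIP, ARRDC3 and CCNG2 stayed at least 2-fold higher in hepatospheres under the 12 alternatives, except that TXNIP has no value without shared-sequence probe sets. Of the 9 genes, 3 to 5 were 2-fold higher. The share of all genes that were so ran from 3.24% with poly(A) control scaling to 16.8% with no floor. The count of 2-fold lower genes was 1 instead of 0 with poly(A) control scaling and with the mean over probe sets, FOXO1 both times. The median difference of the 9 genes, 0.96 as deposited, was -0.061 with poly(A) control scaling, 0.37 with the floor at the 60th percentile, 1.23 with the 7 genes that keep a probe set without shared-sequence names, and 1.23 with the brightest probe set of the hepatosphere array. The cause was not tested, beyond the shift that the poly(A) scaling applies. Of 106 single-gene values under alternatives, 88 stayed within 1.5-fold on the same side of the limit and 18 moved, 9 of these with poly(A) control scaling. TXNIP lay between 2.63 and 3.75, ARRDC3 between 1.44 and 2.47, CCNG2 between 1.03 and 2.12, and ARRDC4, a lower bound wherever signals were raised to a floor, between 0.37 and 2.16. The lowest TXNIP value, with the mean over probe sets, was a lower bound too. With the floor at the 60th percentile TXNIP and ARRDC3, at 3.55 and 2.04, were also lower bounds. Median centring moved the all-gene median to -0.19. The share of 2-fold different genes that were higher turned with scaling. Of 12996 genes, 1181 were higher and 1902 lower with median centring. With poly(A) scaling these were 402 and 5735 of 12398, against 1601 and 1127 of 12766 as deposited. Signals near the floor limit what can be read for ARRDC4, PIK3IP1 and FOXO4. They also limit the size of difference that can be read for TXNIP and ARRDC3, at 136 and 114 in differentiated cells.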
